A study of Sus scrofa with 6 samples.

Results

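This account describes the genes that make, carry, sense and clear retinoic acid in pig embryos. They were taken from the deposited table as the ALDH1A2 row ENSSSCT00000027950 and every row whose best protein match is described as a retinoic acid receptor, a cytochrome P450 26 or a cellular retinoic acid-binding protein. The rule matched 14 of 20523 transcript rows. With 1 row per gene, the one with the most reads, these gave 12 genes, all of which had enough reads to be tested. The groups were 3 QQ embryos, homozygous for the mutant alleles of the VRTN quantitative trait nucleotides, and 3 wild-type embryos (WT, written qq by the submitters). All 6 were Large White embryos of 17.5 to 18 days post coitum, genotyped on their own extra-embryonic tissue. VRTN variants affect how many thoracic vertebrae a pig has, and the study compared whole embryos at the age when somites, the blocks that later give rise to vertebrae, are laid down. The labels name neither litter nor dam, so every p-value measures the spread between these 6 embryos only.

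Retinoic acid is made from vitamin A. Retinol is oxidised to retinaldehyde, and ALDH1A2 turns retinaldehyde into retinoic acid in the trunk mesoderm of vertebrate embryos. CRABP proteins hold it in the cytoplasm, CYP26 enzymes destroy it, and in the nucleus it binds RAR receptors, which sit on DNA together with RXR partners. In mouse and chick embryos retinoic acid from the somites opposes FGF8 from the tail bud and helps to keep somites symmetrical on the left and right. It also sets the front limits of HOX genes in the hindbrain and spinal cord.

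The libraries held 12.2 to 13.5 M uniquely mapped reads. WT replicate 3 stood apart from the rest: on the first principal component, with 57.7% of the variance, it lay at 61.7, while the remaining libraries lay between -29.99 and 9.13. It had the lowest value of the 6 libraries in 41.4% and the highest in 25.3% of the 13957 tested rows. Among the 12 retinoic acid genes it was lowest in 0 and highest in 4, which were ALDH1A2, CRABP1, CRABP2 and RXRB. The table holds levels as RPKM, which divides reads by transcript length and by library total. Fold changes below are log2 values of QQ minus WT from edgeR's quasi-likelihood test, whose scaling factors between libraries (0.933 to 1.06) RPKM does not contain.

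None of the 12 genes passed the test. At an adjusted p of 0.05 edgeR called 0 of the 12, against 0.0% of all tested rows in either direction, and the adjusted p of the 12 ran from 0.233 to 0.983. At an unadjusted p under 0.05 there was 1 gene, ALDH1A2, which was lower in QQ embryos. Among all tested rows 9.29% were lower and 11.0% were higher at that level, so 1 of 12 is near the background. DESeq2 called 0 of the 12 as well, with a smallest adjusted p of 0.165, and it called 0.738% of all tested rows higher and 0.0573% lower. Estimates lay above 0 for 4 of the 12 genes and below 0 for 8, beside 49.7% and 50.3% of all tested rows. Their median was -0.05, and that of all tested rows was -0.0027. Without WT replicate 3 the split was 6 and 6 and the median 0.03.

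**Figure D1:**
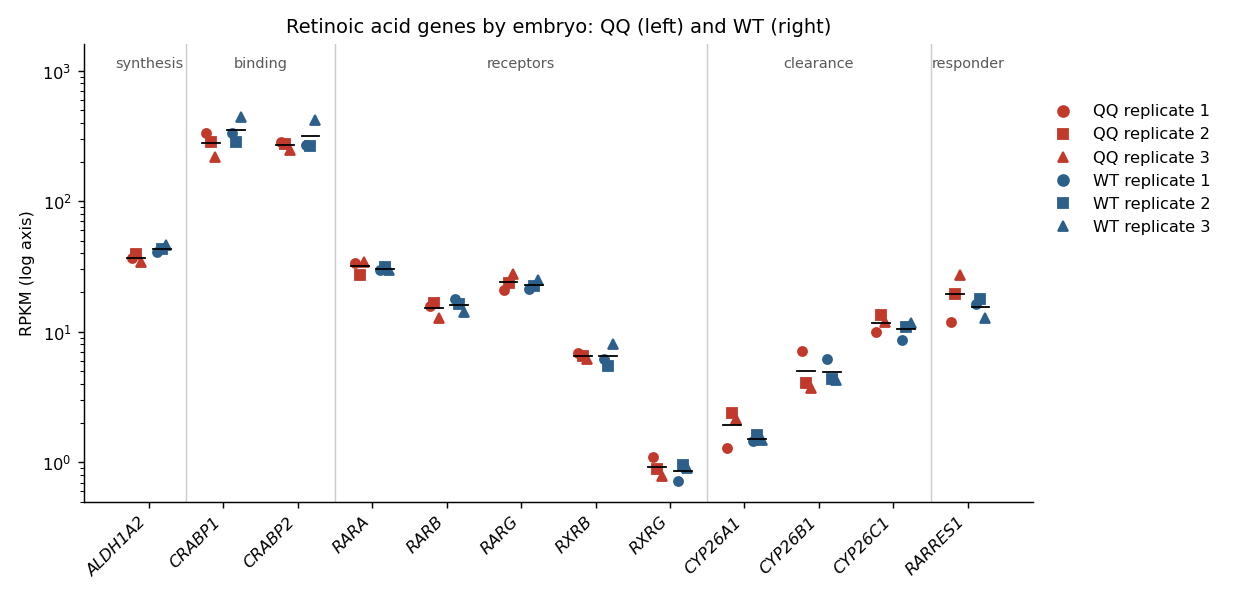
RPKM (log axis) of the 12 retinoic acid genes in each embryo, QQ left and WT right of each gene name, with black lines for the mean of 3 embryos. CRABP1 and CRABP2 stand far above the rest, RXRG and CYP26A1 are lowest, and only for ALDH1A2 do the QQ and WT points not overlap.

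The genes spanned a wide range of levels. CRABP1 and CRABP2 averaged 315 and 292 RPKM over the 6 embryos, and ALDH1A2 followed at 40.0 RPKM. RARA averaged 31.1, RARG 23.5, RARRES1 17.5 and RARB 15.6 RPKM. CYP26C1 stood at 11.1, RXRB at 6.53, CYP26B1 at 4.96, CYP26A1 at 1.73 and RXRG at 0.894 RPKM. Some neighbours in this order could not be separated. CRABP1 was above CRABP2 in 5 of 6 embryos, RXRB above CYP26B1 in 4 of 6 and RARRES1 above RARB in 3 of 6, with ranges that overlapped in each case. ALDH1A2 was above RARA in 6 of 6 embryos, and CYP26C1 above RXRB in 6 of 6, with ranges that did not overlap. RPKM divides by the full length of a row, and for some rows reads covered only part of that length: 37.7 to 38.0% for CRABP2, 38.3 to 41.2% for RXRB, 24.8 to 35.3% for RXRG and 20.8 to 22.8% for CYP26A1, by the authors' percent values. Their levels per length are therefore less certain than those of CRABP1, RARA or ALDH1A2, which were covered over at least 94.4% in every library.

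ALDH1A2, the retinaldehyde-oxidising enzyme of the trunk, had lower values in QQ embryos on the row the rule names. Its 2669 bp row held 1324, 1316 and 1123 reads in QQ replicates 1 to 3, against 1364, 1463 and 1659 reads in WT replicates 1 to 3. In RPKM these were 36.8, 39.2 and 34.5 in QQ embryos, against 40.9, 42.7 and 46.2 in WT embryos. Every QQ embryo lay below every WT embryo. The means were 36.8 ± 2.36 RPKM in QQ and 43.3 ± 2.70 RPKM in WT embryos (SD, n = 3 each). The edgeR fold was 0.795, a log2 fold change of -0.33 ± 0.11 (SE), with a 95% interval of -0.58 to -0.08, an unadjusted edgeR p of 0.0156 and an adjusted p of 0.233. The row ranked 848 by p among 13957. Separate groups in this direction were found in 9.07% of all tested rows. ALDH1A2 was put forward because of its small p in an earlier look at these same libraries, so its lower values are a description and not independent support. Counting error was 2.46 to 2.98% of the reads per library, and the spread between embryos was 6.42% of the mean in QQ and 6.25% in WT. Without WT replicate 3, its highest library, the log2 fold change was -0.26 (edgeR unadjusted p = 0.0244, adjusted p = 0.314). Without QQ replicate 3, its lowest, it was -0.28 and the unadjusted edgeR p was 0.0689.

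A second row described as the same enzyme gave another picture. The ALDH1A2 row ENSSSCT00000024465, of 832 bp, held 347, 364 and 357 reads in QQ embryos, against 316, 351 and 239 reads in WT embryos. In RPKM it stood at 30.9, 34.8 and 35.1 in QQ embryos, against 30.4, 32.9 and 21.4 in WT embryos. The groups overlapped, and WT replicate 3, which was highest on the longer row, was lowest on the shorter. The log2 fold change of the shorter row was 0.16 ± 0.16, with a 95% interval of -0.21 to 0.53 (edgeR adjusted p = 0.566).

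The RPKM of the shorter row over the longer was 0.841, 0.887 and 1.02 in QQ embryos, against 0.743, 0.770 and 0.462 in WT embryos. Every QQ ratio was above every WT ratio, a mean difference of 0.51 on the log2 scale. The ratio was formed after the values were seen and is given without a test. Without WT replicate 3 the difference was 0.27. The files do not say where in the gene each row lies. Counted together, both rows held 35.4, 38.1 and 34.6 RPKM in QQ embryos, against 38.4, 40.3 and 40.3 RPKM in WT embryos, and the fit on reads summed over the rows of each gene gave -0.23 for ALDH1A2 on the log2 scale (edgeR unadjusted p = 0.0420, adjusted p = 0.237).

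**Figure D2:**
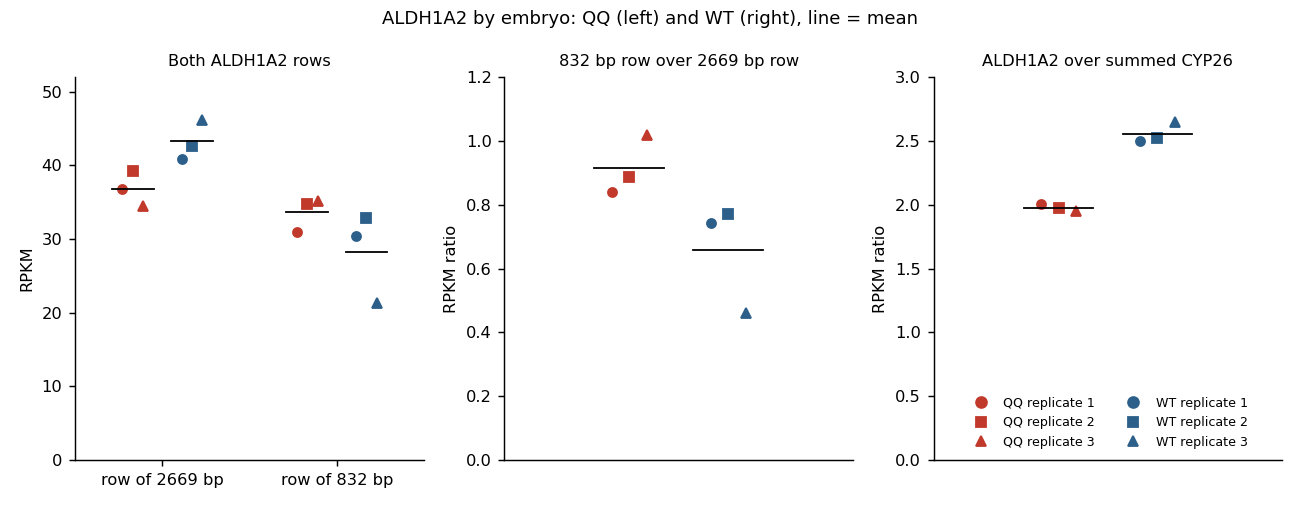
ALDH1A2 in each embryo, QQ left and WT right, with lines for the mean of 3 embryos: RPKM of its 2669 bp and 832 bp rows, the RPKM ratio of the shorter to the longer row, and the RPKM of the longer row over the summed RPKM of the CYP26 genes. The groups are apart on the longer row and in both ratios, but overlap on the shorter row, where WT replicate 3 is lowest at 21.4 RPKM.

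The retinoic acid carriers CRABP1 and CRABP2 were the most abundant genes of the set. CRABP1, which binds retinoic acid in the cytoplasm and marks hindbrain and neural crest in mouse embryos, stood at 331, 282 and 219 RPKM in QQ embryos, against 334, 282 and 441 RPKM in WT embryos. QQ and WT replicates 1 and 2 were nearly equal, QQ replicate 3 was lowest and WT replicate 3 highest. The means were 277 ± 55.8 RPKM in QQ and 352 ± 81.1 RPKM in WT embryos (SD, n = 3 each), with a log2 fold change of -0.44 ± 0.21 (edgeR adjusted p = 0.263). CRABP2, which hands retinoic acid to RAR receptors, stood at 283, 277 and 246 RPKM in QQ embryos, against 270, 264 and 415 RPKM in WT embryos. Apart from WT replicate 3, all libraries lay between 246 and 283 RPKM. The CRABP2 log2 fold change was -0.34 ± 0.19 (edgeR adjusted p = 0.319).

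Single libraries weighed on both estimates. Without WT replicate 3 the log2 fold change was -0.22 for CRABP1 (edgeR unadjusted p = 0.241) and -0.06 for CRABP2 (unadjusted p = 0.567). Without QQ replicate 3, the lowest library for both, it was -0.29 for CRABP1 and -0.27 for CRABP2. The spread between WT embryos was 23.0% of the mean for CRABP1 and 27.0% for CRABP2, against a counting error of at most 2.22%. CRABP1 and CRABP2 are related genes, and only uniquely mapped reads were counted.

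The RAR receptors, which switch target genes when retinoic acid binds, had overlapping values in the genotypes. RARA stood at 33.9, 27.4 and 34.1 RPKM in QQ embryos, against 29.9, 31.3 and 29.9 RPKM in WT embryos. RARG, abundant in presomitic mesoderm and cartilage precursors in mouse, stood at 21.05, 23.8 and 27.9 RPKM in QQ embryos, against 21.4, 22.3 and 24.8 RPKM in WT embryos. RARB, itself a direct target of retinoic acid in mammals, stood at 15.8, 16.7 and 12.8 RPKM in QQ embryos, against 17.8, 16.3 and 14.2 RPKM in WT embryos. QQ values spread more widely than WT values for RARA (12.1% of the mean in QQ, 2.76% in WT) and RARG (14.2% in QQ, 7.81% in WT), a difference in spread that was not tested.

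The log2 fold change was -0.03 ± 0.14 for RARA, with a 95% interval of -0.33 to 0.28. For RARG it was -0.02 ± 0.13, with an interval of -0.31 to 0.28. The intervals allow folds of 0.793 to 1.22 for RARA and 0.807 to 1.21 for RARG, so differences within those ranges were not detectable here. RARB had a log2 fold change of -0.18 ± 0.17 (edgeR adjusted p = 0.520).

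Summed over the 3 RAR genes, RPKM was 70.8, 67.8 and 74.8 in QQ embryos, against 69.1, 70.0 and 68.9 in WT embryos. RARA made up 40.4 to 47.9% of that sum in QQ and 43.3 to 44.8% in WT embryos. RARG made up 29.7 to 37.3% in QQ and 30.9 to 36.0% in WT embryos, and RARB 17.1 to 24.6% in QQ and 20.6 to 25.8% in WT embryos. In each embryo RARA thus had the highest RPKM of the RAR genes and RARB the lowest.

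RXR receptors pair with RARs on DNA. RXRB stood at 6.87, 6.51 and 6.15 RPKM in QQ embryos, against 6.14, 5.49 and 8.03 RPKM in WT embryos, with a log2 fold change of -0.11 ± 0.19 (edgeR adjusted p = 0.743). WT replicate 3 was again the highest library. RXRG, an RXR best known from muscle and brain, held only 28, 21 and 18 reads in QQ embryos, against 17, 23 and 23 reads in WT embryos. Its log2 fold change of 0.01 ± 0.29 had a 95% interval of -0.63 to 0.66, and its counting error was 18.9 to 24.3% per library. A second RXRB row held 2 to 11 reads per library and was not tested. RXRA was not analysed here.

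**Figure D3:**
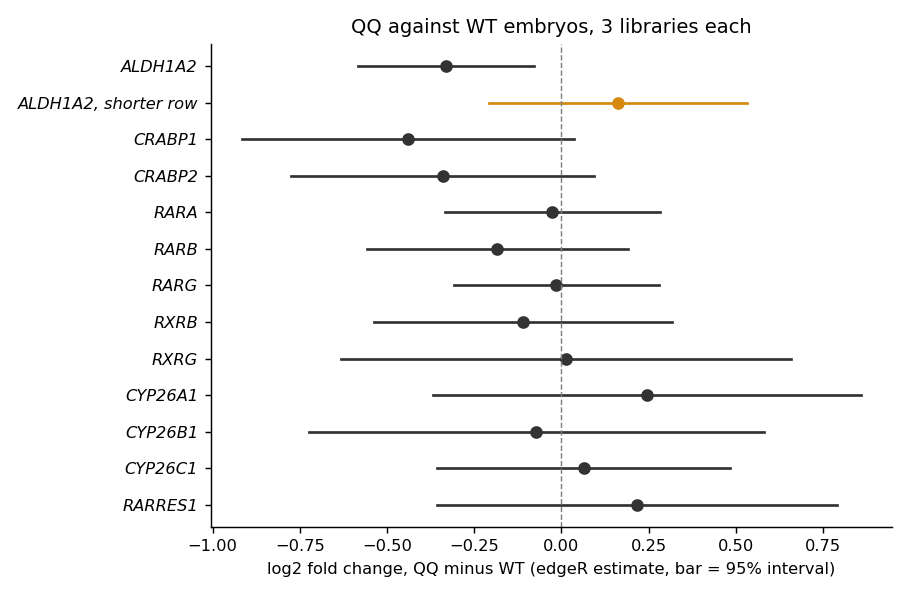
Log2 fold change (QQ minus WT, edgeR) with its 95% interval for the 12 genes, and in orange for the second, shorter ALDH1A2 row. The interval of the longer ALDH1A2 row, -0.58 to -0.08, is the only one drawn that does not include 0, and this interval is not adjusted for the number of genes tested.

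The CYP26 enzymes, which break retinoic acid down and keep regions of the embryo free of it, did not separate the genotypes gene by gene. CYP26B1, which acts in hindbrain and limb bud in mouse, stood at 7.16, 4.06 and 3.68 RPKM in QQ embryos, against 6.23, 4.33 and 4.30 RPKM in WT embryos. CYP26C1, a hindbrain and head mesenchyme enzyme in mouse, stood at 9.91, 13.4 and 11.9 RPKM in QQ embryos, against 8.69, 10.95 and 11.7 RPKM in WT embryos. Replicate 1 of each genotype thus had the highest CYP26B1 and the lowest CYP26C1 of its group. The RPKM of CYP26C1 over CYP26B1 was 1.39, 3.29 and 3.23 in QQ embryos, against 1.39, 2.53 and 2.72 in WT embryos, so both replicates 1 lay apart from the remaining 4 embryos. The row of CYP26B1 held 217 reads in QQ replicate 1 and 175 in WT replicate 1, against 101 to 130 reads in the other 4 libraries. Nothing in the labels ties embryos of the same number to each other.

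CYP26A1, the enzyme of the tail bud and a direct target of retinoic acid in mouse, held few reads: 26, 45 and 39 in QQ embryos, against 27, 31 and 30 in WT embryos. The log2 fold change was 0.25 ± 0.27 for CYP26A1, 0.06 ± 0.19 for CYP26C1 and -0.07 ± 0.29 for CYP26B1, with edgeR adjusted p of 0.601, 0.855 and 0.897. A second row, described as CYP26A1-like, held 11, 20 and 18 reads in QQ embryos, against 19, 11 and 13 reads in WT embryos. Where the genome build holds a near-identical copy, unique reads can be split or lost, so the CYP26A1 values are uncertain.

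**Figure D4:**
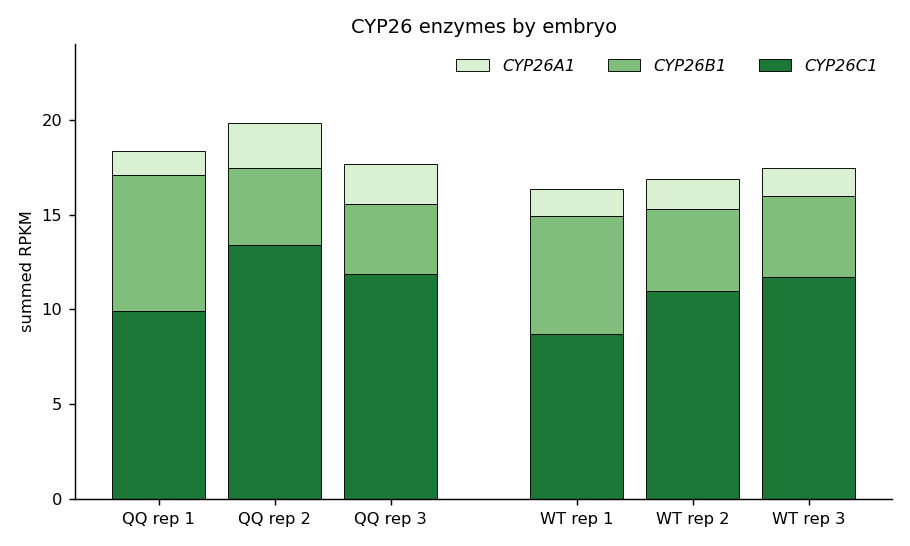
RPKM of CYP26C1 (dark), CYP26B1 (middle) and CYP26A1 (light), stacked, in each embryo, QQ left and WT right. The totals run from 17.7 to 19.8 RPKM in QQ and from 16.4 to 17.5 RPKM in WT embryos, and replicate 1 of each genotype has the largest CYP26B1 part.

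Synthesis and clearance were also set against each other within an embryo. Summed CYP26 RPKM was 18.4, 19.8 and 17.7 in QQ embryos, against 16.4, 16.9 and 17.5 in WT embryos, so the groups only just failed to overlap. Separate groups with QQ higher were found in 18.8% of all tested rows. ALDH1A2 RPKM over summed CYP26 RPKM was 2.00, 1.98 and 1.95 in QQ embryos, against 2.50, 2.53 and 2.65 in WT embryos. This ratio does not depend on the scaling between libraries. It was formed with earlier results of these libraries known, its numerator is the gene put forward for a small p in them, and it is given without a test. With both ALDH1A2 rows counted together it was 1.93, 1.92 and 1.96 in QQ embryos, against 2.35, 2.39 and 2.31 in WT embryos. With the shorter ALDH1A2 row alone the groups overlapped, at 1.68, 1.75 and 1.99 in QQ embryos, against 1.86, 1.94 and 1.22 in WT embryos.

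RARRES1, a membrane protein first described as induced by a synthetic retinoid in human skin, stood at 11.9, 19.3 and 27.0 RPKM in QQ embryos, against 16.2, 17.7 and 12.7 RPKM in WT embryos. The QQ embryos covered the whole WT range and went past it on both sides. Its log2 fold change was 0.22 ± 0.25 (edgeR adjusted p = 0.622), and without QQ replicate 3 it was -0.09.

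The wider pathway was described with 3 lists of 45 genes, of which 42 had a row and 35 were tested. At an adjusted p of 0.05, edgeR called 0 of the 35. Of 10 tested genes of retinoid transport and synthesis, 6 had estimates above 0 and 4 below, and their median on the log2 scale was 0.19. Of the 10, 1 had an unadjusted p under 0.05, against 20.3% of all tested rows, a share below the background. That gene was RDH11, a retinal reductase, at 2.03, 2.71 and 2.76 RPKM in QQ embryos, against 1.73, 1.60 and 1.25 RPKM in WT embryos (log2 fold change 0.61 ± 0.21, edgeR adjusted p = 0.233), with reads over 6.07 to 9.82% of its row. RBP2, a retinol-binding protein, had 6 to 13 reads in QQ and 14 to 23 reads in WT embryos (log2 fold change -0.86 ± 0.38, edgeR adjusted p = 0.247). STRA6, the membrane receptor that takes up retinol, and DHRS3, which turns retinaldehyde back into retinol, had log2 fold changes of -0.33 ± 0.18 and -0.32 ± 0.19, and both had their highest RPKM in WT replicate 3, without which they stood at -0.12 and -0.13. RDH10, which makes the retinaldehyde that ALDH1A2 uses, held 443, 446 and 463 reads in QQ embryos, against 353, 404 and 380 reads in WT embryos (log2 fold change 0.18 ± 0.12, edgeR adjusted p = 0.408). RDH10 is shown for its role, was chosen after its values were seen, and was not among the 4 smallest p of the list.

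The plasma carrier RBP4 and its partner TTR varied widely within each genotype. RBP4 held 1107, 671 and 3620 reads in QQ embryos, against 1472, 489 and 2328 reads in WT embryos. TTR held 217, 32 and 852 reads in QQ embryos, against 141, 33 and 502 reads in WT embryos. AFP, a marker of yolk sac and liver endoderm, held 1474, 331 and 7768 reads in QQ embryos, against 1150, 182 and 3540 reads in WT embryos. Replicate 2 of each genotype was lowest and replicate 3 highest for all 3 genes. Summed RPKM of the endoderm list, of which 5 of 6 genes had a row and which includes TTR, ran from 31.8 to 573 in QQ and from 38.3 to 282 in WT embryos, and ALB, a defining liver marker, held 11 to 17 reads in each library. APOB, a lipoprotein of yolk sac and liver, held 23, 15 and 285 reads in QQ embryos, against 8, 6 and 4 reads in WT embryos (log2 fold change 4.09 ± 1.18, edgeR unadjusted p = 0.00653, adjusted p = 0.233). The 5 tested endoderm genes had a median log2 fold change of 0.65, and of 2.01 without WT replicate 3. The part of this tissue in the RBP4 values was not tested. In whole embryos, fewer cells of a type and less RNA per cell cannot be told apart.

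The receptor cofactor list, mostly coactivators and corepressors that work with RARs, showed more estimates above 0. Of 11 tested genes 8 lay above 0 and 3 below, and their median on the log2 scale was 0.43. FABP5, a fatty acid-binding protein and not a coactivator or corepressor, is counted among those below 0 (log2 fold change -0.26 ± 0.15). Of the 11, 7 had an unadjusted p under 0.05 (6 higher and 1 lower in QQ), against 20.3% of all tested rows in either direction and 11.0% higher. The list was chosen with earlier results of these data known, so this count is a description and not independent support. NCOR1, a corepressor that holds unliganded RARs silent, stood at 21.2, 25.3 and 27.1 RPKM in QQ embryos, against 19.0, 17.4 and 14.6 RPKM in WT embryos. Its groups did not overlap, as in 18.8% of all tested rows with QQ higher. The log2 fold change of NCOR1 was 0.43 ± 0.12 (edgeR unadjusted p = 0.00521, adjusted p = 0.233). RERE, which in mouse works with retinoic acid signalling in somite symmetry, stood at 16.0, 22.7 and 23.4 RPKM in QQ embryos, against 16.1, 12.4 and 10.6 RPKM in WT embryos, a log2 fold change of 0.57 ± 0.19 (edgeR adjusted p = 0.233). QQ replicate 1 and WT replicate 1 were nearly equal for RERE.

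The coactivator NCOA2 held only 12, 27 and 24 reads in QQ embryos, against 11, 3 and 4 in WT embryos (log2 fold change 1.71 ± 0.52, edgeR adjusted p = 0.233). WDR5, a core subunit of histone methyltransferase complexes, went the other way at 33.1, 31.5 and 33.8 RPKM in QQ embryos, against 34.9, 39.0 and 46.3 RPKM in WT embryos (log2 fold change -0.39 ± 0.14, edgeR adjusted p = 0.233). The remaining genes with an unadjusted p under 0.05 were NCOA3, NRIP1 and EP300, with log2 fold changes of 0.67 ± 0.26, 0.91 ± 0.33 and 0.99 ± 0.36. Reads covered only 8.85 to 10.5% of the EP300 row and 2.97 to 6.39% of the NCOA2 row. NCOA3 stood at 0.39, NRIP1 at 0.55, EP300 at 0.68 and WDR5 at -0.24 without WT replicate 3.

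Transcript length and WT replicate 3 moved with these cofactor values. NCOR1, NCOA3, NRIP1, EP300 and RERE had their lowest RPKM in WT replicate 3, and NCOR1, NCOA3, NCOA2 and EP300 are long rows of 4380 to 8364 bp. Over all tested rows of 3666 bp and longer the median log2 fold change was 0.10, and over rows of 2389 to 3665 bp it was -0.01. Without WT replicate 3, 6 cofactor genes higher and 1 lower had an unadjusted p under 0.05, beside 8.55% and 5.15% of all tested rows, and the median was 0.35. With each library's trend with length removed, the numbers were again 6 and 1, beside 9.01% and 13.3% of all tested rows. The median was then 0.25, beside -0.07 over all tested rows, and the signs were 6 above and 5 below 0. Limma with array weights, which counts outlying libraries less, called NCOR1, NRIP1 and EP300 higher (adjusted p of 0.0408, 0.0398 and 0.0437). It also called 1079 rows higher and 243 lower over the whole table.

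Of the known retinoic acid target genes none passed the test. Of 15 tested targets 5 lay above 0 and 10 below, beside 50.3% of all tested rows below 0, and their median on the log2 scale was -0.11. Of the 15, 1 had an unadjusted p under 0.05, against 20.3% of all tested rows, a share below the background. Above and below 0 lay 5 and 10 targets without WT replicate 3, and 6 and 9 with limma and array weights. They were 4 and 11 with the length trend removed, and 2 and 13 with limma and quantile normalization. In that last setting 3 targets were lower and 0 higher at an unadjusted p under 0.05, beside 9.77% and 10.1% of all tested rows. TGM2, a transglutaminase induced by retinoic acid in many cells, stood at 9.78, 7.33 and 6.82 RPKM in QQ embryos, against 10.7, 10.1 and 8.91 RPKM in WT embryos (log2 fold change -0.40 ± 0.17, edgeR unadjusted p = 0.0475, adjusted p = 0.243). HOXB1, the hindbrain HOX gene with retinoic acid response elements in mouse, stood at 20.9, 18.7 and 20.4 RPKM in QQ embryos, against 20.5, 22.9 and 26.1 RPKM in WT embryos (log2 fold change -0.31 ± 0.16, edgeR adjusted p = 0.289). HOXB5 had a log2 fold change of -0.40 ± 0.20 and the orphan receptor NR2F1 of -0.29 ± 0.17. HOXB1 stood at -0.19 and HOXB5 at -0.25 without WT replicate 3. The groups overlapped for these 4 targets. PAX6 stood at 0.12 ± 0.14 on the same scale. MEIS2 was the 1 tested target with groups apart, at 3.43, 3.47 and 3.61 RPKM in QQ embryos, against 3.23, 3.31 and 2.23 RPKM in WT embryos. Its log2 fold change was 0.17 ± 0.18 (edgeR adjusted p = 0.573), and 0.03 without WT replicate 3. Separate groups with QQ higher made up 18.8% of all tested rows. PAX6 and MEIS2 were chosen after their values were seen and were not among the 4 smallest p of the list. FGF8, which retinoic acid represses in the trunk, held 3 to 13 reads per library and was below the filter.

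**Figure D5:**
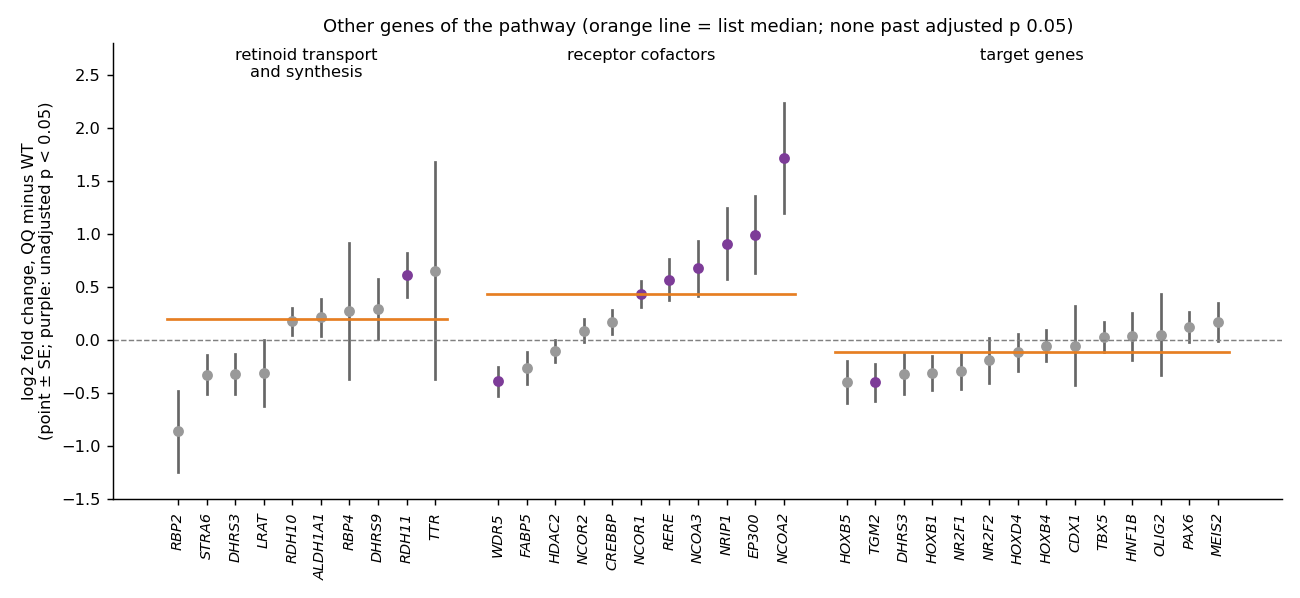
Log2 fold change (QQ minus WT, edgeR) ± SE of tested genes of 3 lists: retinoid transport and synthesis, receptor cofactors and target genes, of which 1 is not drawn. Purple points have an unadjusted p under 0.05 and orange lines are the medians of the whole lists, 0.19, 0.43 and -0.11 from left to right.

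Marker lists of the tissues in a whole embryo were set beside these values. In the somite list, 6 of 7 genes had a row and all 6 were tested. Summed RPKM ran from 66.8 to 82.3 in QQ and from 63.6 to 71.1 in WT embryos, and the median log2 fold change was 0.05 (-0.01 with the length trend removed). Its 6 genes ran from -0.04 for PAX3 to 0.26 for FOXC2 on the log2 fold change scale. FOXC2, a transcription factor of somites and head mesenchyme, had groups that did not overlap (20.7, 21.4 and 19.8 RPKM in QQ embryos, against 15.5, 18.7 and 14.2 RPKM in WT embryos, edgeR adjusted p = 0.320). Across all tested rows, 18.8% had separate groups with QQ higher. In the lateral plate list, 6 of 7 genes had a row, with summed RPKM from 237 to 334 in QQ and from 246 to 269 in WT embryos. The tail bud and presomitic list had rows for 4 of 6 genes, with sums from 13.5 to 22.0 in QQ and from 11.9 to 19.1 in WT embryos. The neural tube list had rows for 5 of 6 genes, with sums from 79.3 to 106 RPKM in QQ and from 76.7 to 92.4 RPKM in WT embryos. The neural crest list had rows for 3 of 4 genes, with sums from 12.7 to 16.0 in QQ and from 12.5 to 13.3 in WT embryos, and SOX10 held 3 to 7 reads per library. Erythroid sums (6 of 6 genes) ran from 229 to 2475 RPKM in QQ and from 1701 to 6187 RPKM in WT embryos. HBE1 made up nearly all of each sum, at 2353, 226 and 2465 RPKM in QQ embryos, against 6169, 1693 and 2323 RPKM in WT embryos. QQ replicates 1 and 3 thus lay within the WT range. All 5 tested erythroid genes lay below 0 and their median on the log2 scale was -1.08. Of the 5, 1 gene, HBB, had an unadjusted p under 0.05 (7, 0 and 11 reads in QQ embryos, against 28, 12 and 13 in WT embryos, edgeR adjusted p = 0.243). With limma and array weights all 5 had an unadjusted p under 0.05 and 1 was called. Endothelial sums (3 of 5 genes) ran from 9.22 to 11.8 in QQ and from 7.62 to 10.7 in WT embryos, with TIE1 at 0 to 2 reads. The part of tissue make-up in the values of ALDH1A2, CRABP1 and CRABP2 was not tested.

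The genes whose pattern over the 6 libraries was most like that of ALDH1A2 were NASP, a histone chaperone (Pearson r = 0.995), METTL17, a factor of the mitochondrial ribosome (0.995), PHKG2, a phosphorylase kinase subunit (0.993), ARG2, a mitochondrial arginase (0.989), and GTF2E2, a subunit of general transcription factor TFIIE (0.988). NASP stood at 485, 511 and 443 RPKM in QQ embryos, against 521, 537 and 578 RPKM in WT embryos, so all embryos had the order they have for ALDH1A2. With only 6 libraries such likeness is common: 11.6% of the 6152 genes compared had an r above 0.9. Within the set, CRABP1 (r = 0.867) and CRABP2 (r = 0.837) were nearest to ALDH1A2 and RARRES1 was farthest (r = -0.56). All of these r include WT replicate 3, and each is a description over 6 libraries with no test.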

How the data were processed

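Total RNA of whole embryos was made into TruSeq libraries, per the labels' protocols, and Sscrofa10.2 was the genome build, per the submitters' processing notes. Aligner, counting program and strand use: not given in the sources used here. Per the file headers, the deposited table holds for each transcript row and library the count of uniquely mapped reads, the covered percent of the row's length, and the RPKM by the authors, with a dash for 0. Counts add up to each header total. Counts were tested with edgeR 4.0.16 (R 4.3.3): TMM factors, the default filter (minimum count 10, total 15), Benjamini-Hochberg adjustment over 13957 rows, threshold 0.05. The SE is the log2 fold change divided by the square root of F. Means and SDs are of deposited RPKM. A count of 0 allows up to 3 reads, or 0.222 to 0.246 CPM, and counting errors cover sampling of reads only.

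Symbols came from the deposited pig protein accession (7182 rows), the pig gene of the KEGG column where it named a single row (2284) or the deposited description (58), through RefSeq gene tables of Sscrofa11.1, of which no position was used. The genes and lists were chosen with earlier results of these data known. Named genes were every tested gene of the rule, the 4 smallest unadjusted p of each list where none passed, and the 5 highest r with ALDH1A2 among genes of at least 1 RPKM. DESeq2 1.42.0, limma 3.58.1 and other settings were alternatives. No library pair agreed within sampling noise (chi-square over its degrees of freedom at least 7.54). Of the target list, 1 tested gene is counted with its list and is not reported here by itself.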

Additional observations from a re-analysis of the deposited data

How the results depend on the processing

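The ALDH1A2 log2 fold change kept its sign and stayed short of an adjusted p of 0.05 under all 19 alternatives, from -0.38 to -0.17, with adjusted p from 0.156 to 0.526. Leaving out each library gave -0.38 to -0.26, array weights -0.17 and quantile normalization -0.28. Deviations from the group mean correlated at -0.19, 0.21 and -0.06 for embryos of the same number, and at -0.17 to 0.22 for the others. With 3 embryos per group these values cannot show whether embryos of the same number share a litter or batch. With the replicate block ALDH1A2 stood at -0.33 (edgeR adjusted p = 0.298) and edgeR again called 0 rows. CRABP1, CRABP2, RARB and CYP26A1 also kept their sign under every alternative that gave a value, over ranges of -0.63 to -0.21, -0.47 to -0.04, -0.26 to -0.07 and 0.08 to 0.45.

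Of 226 values under alternatives, 28 turned sign, and none passed the threshold; the cause was not tested. With limma and pseudocounts of 0.5, 0.1 and 1, RARG was 0.078, 0.079 and 0.077, RARA 0.058, 0.058 and 0.057, and RXRB 0.0047, 0.0059 and 0.0035. These limma fits used RPKM, without edgeR's scaling factors. Their medians over all tested rows were 0.081, 0.090 and 0.071, against -0.0027 in the main fit. With array weights RARG, RARA and RXRB were 0.19, 0.055 and 0.069, beside a median of 0.065 over all tested rows. In that setting CYP26C1 was 0.39 (limma adjusted p = 0.0804), the smallest adjusted p of any of the 12 genes under an alternative. With quantile normalization CYP26C1 was -0.023 and RXRG -0.072, and with the length trend removed, a setting chosen after seeing the data, RXRG was -0.012. The medians over all tested rows were -0.043 with quantile normalization and -0.071 with the length trend removed. Leaving out each library gave -0.12 to 0.075 for RARG, -0.11 to 0.087 for RARA, -0.24 to 0.091 for RXRB, -0.086 to 0.45 for RARRES1, -0.066 to 0.18 for CYP26C1, -0.48 to 0.11 for CYP26B1 and -0.18 to 0.13 for RXRG. CYP26A1 and RXRG gave no value with the filter at 2 RPKM.

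No alternative called any of the 12 genes. Array weights called 3 genes of the pathway lists higher, and over all rows 1079 higher and 243 lower. DESeq2 called 103 rows higher and 8 lower. Leaving out each library gave 0 to 2 rows higher and 0 to 1 lower. Depth limits CYP26A1 and RXRG, where counting error reached 19.6% and 24.3% of the reads.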
